A study of Rattus norvegicus with 9 samples.

Results

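The genes examined encode 4 structural proteins of the extracellular matrix and 2 proteins of its turnover, in cultured endothelial cells of the rat renal artery, which form the inner lining of that vessel. They are Fn1 (ENSRNOG00000014288), Col1a1 (ENSRNOG00000003897), Col1a2 (ENSRNOG00000011292), Col3a1 (ENSRNOG00000003357), Mmp2 (ENSRNOG00000016695) and Timp1 (ENSRNOG00000010208). They were chosen by Ensembl identifier for their function, with earlier results of these data known. These are 6 of the 32883 genes in the gene table, and all 6 passed the filter on low counts. The deposited table holds no symbols, so the symbols are those given with the selection.

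Total RNA was sequenced in 9 libraries, 3 in each of 3 groups. The first group is labelled Normal, the Model group is tied to angiotensin II (a pressor peptide hormone) by the series title, and the third group, called Treated here, received Calycosin and Tanshinone IIA, 2 plant compounds. All cells were passaged cells grown in medium with fetal bovine serum. The labels name only the compounds for the Treated group, so that these cells also received the Model condition is an assumption taken from the title. Doses and times are not stated. The labels also leave unsaid whether replicates are separate cultures, so the p-values reflect variation among these libraries only, and that variation may be technical. Defining markers of endothelial cells, fibroblasts and smooth muscle could not be read by symbol and are not analysed here. In bulk RNA, fewer cells of a type and less RNA per cell cannot be told apart.

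As background, fibronectin and the fibrillar collagens form the fibres of the interstitial matrix around a vessel. Type I collagen is usually assembled from alpha 1 and alpha 2 chains, the products of Col1a1 and Col1a2, while type III collagen is built from the product of Col3a1 alone. Matrix metalloproteinase 2, also called gelatinase A, cleaves denatured collagen and basement membrane collagen, and tissue inhibitor of metalloproteinases 1 (Timp1) binds and blocks metalloproteinases. Angiotensin II is known in vascular and renal cells for raising matrix production.

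In units of 1e6 counts the libraries held 7.98 to 18.3 in the gene table, and Treated 2 and Treated 3 were the shallowest. The 6 genes together took 0.397% to 0.441% of the counts in the Normal and Model libraries and 0.364% to 0.371% in the Treated libraries.

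Col3a1, Timp1, Fn1 and Col1a1 were abundant in every library, while Mmp2 and Col1a2 were close to the detection limit. Levels of different genes are compared per length, as deposited FPKM (fragments per kilobase of gene length per 1e6 counts). In the Normal group Col3a1 was at 387.7 ± 25.5 FPKM, Timp1 at 222.3 ± 9.81 FPKM, Fn1 at 170.1 ± 4.90 FPKM and Col1a1 at 93.2 ± 8.12 FPKM (SD, n = 3). Mmp2 was at 0.446 ± 0.030 FPKM and Col1a2 at 0.278 ± 0.134 FPKM in the same libraries (SD, n = 3). By mean FPKM over 9 libraries Col3a1 ranked 181 and Col1a2 ranked 15062 among the 32883 genes. The order Col3a1, Timp1, Fn1, Col1a1, Mmp2, Col1a2 held for the group means of all 3 groups. Neighbours in this order did not overlap between libraries of a group, with 1 exception: in Normal, Col1a2 reached 0.432 FPKM and Mmp2 went down to 0.424 FPKM. In the Treated group Timp1 (199.2 to 231.2 FPKM) and Fn1 (194.4 to 198.3 FPKM) lay next to each other. The lowest Timp1 value, in Treated 2, had a counting error of 2.91%, so these 2 genes were not apart beyond counting error.

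The 2 chains of type I collagen were measured at very different RNA levels. The FPKM of Col1a1 was 211 to 492 times that of Col1a2 in the Normal libraries and 282 to 549 times in the Model libraries. In the Treated libraries it was 854 times in Treated 1 and 405 times in Treated 3. In Treated 2, where Col1a2 had 0 counts, it was at least 828 times with 3 counts taken as the floor of that library. The 95% Poisson interval of that 0 reaches 3.69 counts, at which the bound is lower. Each of these ratios rests on at most 27 counts of Col1a2.

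**Figure D1:**
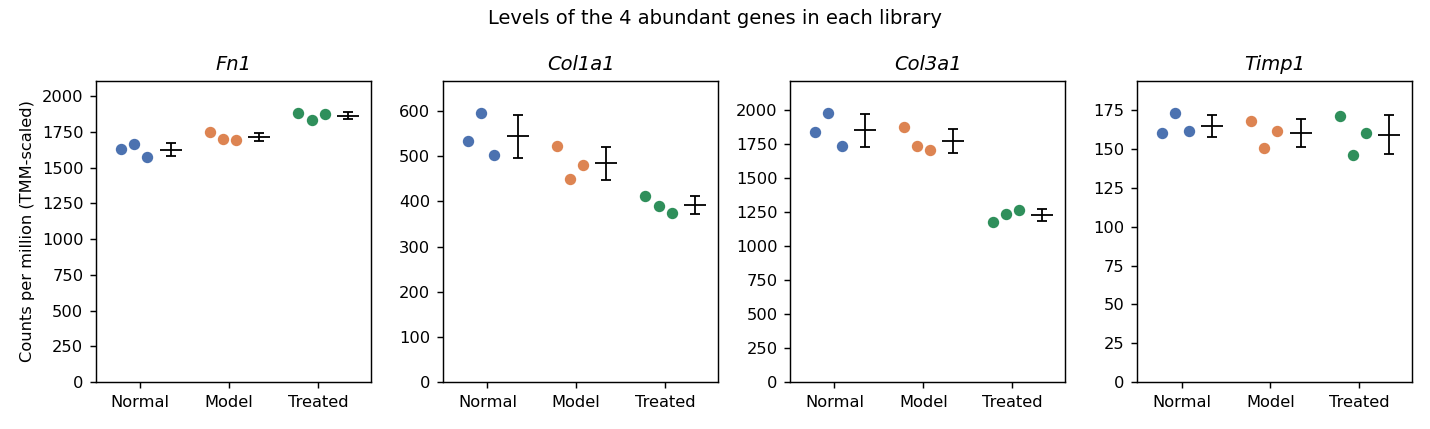
Counts per 1e6 counts (CPM, scaled by TMM factors) of Fn1, Col1a1, Col3a1 and Timp1, with 1 point per library, 3 libraries in each of the Normal, Model and Treated groups, and the group mean with its SD in black. The Treated points of Col3a1 sit between 1180 and 1270 CPM, below all Normal and Model points, those of Fn1 sit above all others, and those of Timp1 overlap the other groups.

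The largest well-measured difference among the 6 genes was in Col3a1, which fell in the Treated group against both other groups. Levels of 1 gene across libraries are given as CPM, counts per 1e6 counts of the library after TMM scaling. Col3a1 was at 1841, 1979 and 1740 CPM in Normal libraries 1 to 3, at 1877, 1739 and 1705 CPM in Model libraries 1 to 3 and at 1180, 1234 and 1270 CPM in Treated libraries 1 to 3. The Treated libraries lay below every other library, and the Normal and Model libraries overlapped. Against Model the fall was 1.44-fold (log2 fold change -0.53 ± 0.06 SE, edgeR's quasi-likelihood test with Benjamini-Hochberg adjustment, adjusted p = 0.00124). Against Normal it was 1.51-fold (-0.59 ± 0.06 SE, edgeR adjusted p = 0.000286). Col3a1 ranked 3 by p among 12943 tested genes in both comparisons, which share the Treated libraries. Model and Normal differed in Col3a1 by a log2 fold change of -0.06 (95% interval -0.19 to 0.07, edgeR adjusted p = 0.999).

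The other abundant collagen gene, Col1a1, fell in the Treated group against Normal. It was at 534, 595 and 503 CPM in Normal libraries 1 to 3, at 523, 449 and 481 CPM in Model libraries 1 to 3 and at 413, 389 and 373 CPM in Treated libraries 1 to 3. The Treated libraries were again below every other library, while Model overlapped Normal. Against Normal the fall was 1.39-fold (log2 fold change -0.47 ± 0.07 SE, edgeR adjusted p = 0.00282). With a surrogate variable in the fit, which itself did not overlap between Normal and Treated libraries, that log2 fold change was -0.27 (edgeR adjusted p = 0.0290). Against Model the log2 fold change was -0.31 ± 0.07 (SE) and missed the threshold (edgeR adjusted p = 0.0674). It passed without Normal 2, Normal 3 or Model 2 (edgeR adjusted p = 0.0342, 0.0411 and 0.0284) and in DESeq2 (adjusted p = 0.0112). Between Model and Normal the log2 fold change was -0.17, with a 95% interval of -0.32 to -0.01 (edgeR adjusted p = 0.999).

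Fn1, which encodes fibronectin, the adhesive glycoprotein that cells bind through integrins, differed in the opposite direction. It was at 1631, 1668 and 1577 CPM in Normal libraries 1 to 3, at 1747, 1702 and 1694 CPM in Model libraries 1 to 3 and at 1881, 1837 and 1877 CPM in Treated libraries 1 to 3. The 3 groups did not overlap, with Normal lowest and Treated highest. Fn1 rose 1.15-fold from Normal to Treated (log2 fold change 0.20 ± 0.05 SE, edgeR adjusted p = 0.0402). This call was lost in 12 of 20 alternative fits, among them those without Normal 1, Normal 3, Model 1, Model 3 or any single Treated library, where edgeR adjusted p was 0.0514 to 0.141. The log2 fold change in these and all other fits was 0.18 to 0.24. Treated and Model differed by 0.12 ± 0.05 (SE) on the log2 scale (edgeR adjusted p = 0.307) and Model and Normal by 0.08 ± 0.05 (SE; edgeR adjusted p = 0.999).

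Col1a2 gave too few counts for a firm comparison. Its raw counts were 27, 13 and 11 in Normal libraries 1 to 3, 10, 20 and 13 in Model libraries 1 to 3 and 7, 0 and 6 in Treated libraries 1 to 3. In CPM the Treated libraries (0 to 0.732) lay below the Normal libraries (0.899 to 2.01) and the Model libraries (0.756 to 1.26). The 0 in Treated 2 allows up to 0.376 CPM with 3 counts taken as the floor, and more at its 95% Poisson limit of 3.69 counts. Summed over each group and scaled by depth, the Treated count was 0.290 times the Normal count (95% interval 0.145 to 0.541) and 0.404 times the Model count (0.199 to 0.765), intervals that cover counting error only. With the spread between libraries included, the test across all genes did not call Col1a2 against Normal (log2 fold change -1.76 ± 0.57 SE, edgeR adjusted p = 0.120) or against Model (-1.29 ± 0.59 SE, edgeR adjusted p = 0.387). Without Treated 2 these values were -1.35 and -0.88, without Treated 3 they were -2.29 and -1.81, and without Normal 1 the first was -1.28. Model against Normal gave -0.47 ± 0.45 (SE; edgeR adjusted p = 0.999), and -0.0020 without Normal 1.

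**Figure D2:**
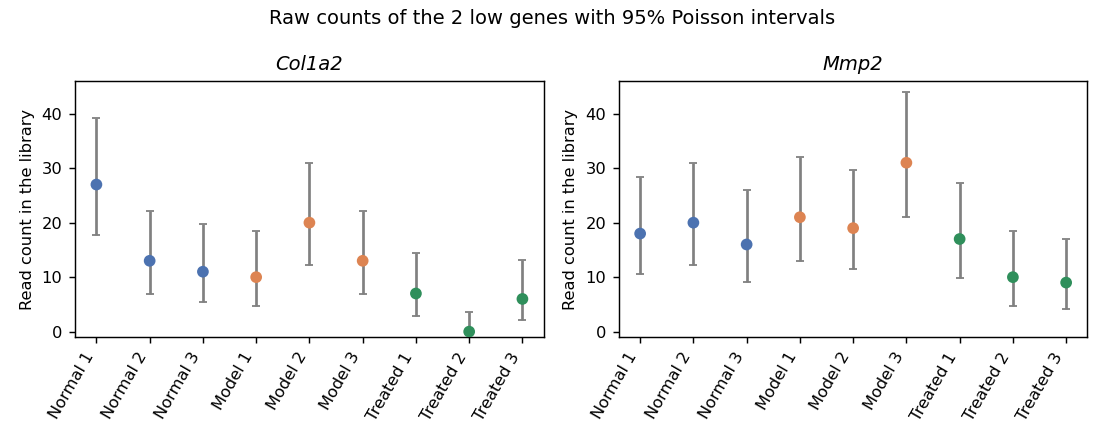
Raw read counts of Col1a2 and Mmp2 in each of the 9 libraries, colored by group, with 95% Poisson intervals that cover counting error only. Col1a2 ranges from 0 in Treated 2 to 27 in Normal 1 and Mmp2 from 9 in Treated 3 to 31 in Model 3, and the intervals of most libraries overlap.

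The matrix-degrading enzyme and its inhibitor gave no call in any comparison. Timp1 was at 160, 173 and 162 CPM in Normal libraries 1 to 3, at 168, 151 and 162 CPM in Model libraries 1 to 3 and at 171, 146 and 161 CPM in Treated libraries 1 to 3. The 3 groups overlapped throughout. The 95% intervals of its log2 fold changes were -0.19 to 0.11 for Model against Normal, -0.16 to 0.15 for Treated against Model and -0.20 to 0.10 for Treated against Normal (edgeR adjusted p = 0.999, 0.984 and 0.762). The intervals of both comparisons with Treated leave out a change of the size seen there in Col3a1, in either direction.

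Mmp2 had 18, 20 and 16 raw counts in Normal libraries 1 to 3, 21, 19 and 31 in Model libraries 1 to 3 and 17, 10 and 9 in Treated libraries 1 to 3. In CPM the Treated libraries (0.931 to 1.24) lay below the Normal libraries (1.31 to 1.48) and overlapped the Model libraries (1.20 to 1.82). The log2 fold change was -0.54 for Treated against Model (95% interval -1.14 to 0.07, edgeR adjusted p = 0.451), -0.38 for Treated against Normal (-1.004 to 0.25, edgeR adjusted p = 0.518) and 0.16 for Model against Normal (-0.40 to 0.72, edgeR adjusted p = 0.999). The last value was 0.0087 without Model 3, 0.31 without Model 2 and 0.73 when libraries were thinned to equal depth. The Treated intervals of Mmp2 hold both 0 and the change seen in Col3a1, so at this depth neither could be told from the other. Within a library, Mmp2 FPKM per 1000 FPKM of Timp1 was 1.95 to 2.06 in Normal, 1.92 to 2.71 in Model and 1.31 to 2.05 in Treated libraries, and all 3 groups overlapped.

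**Figure D3:**
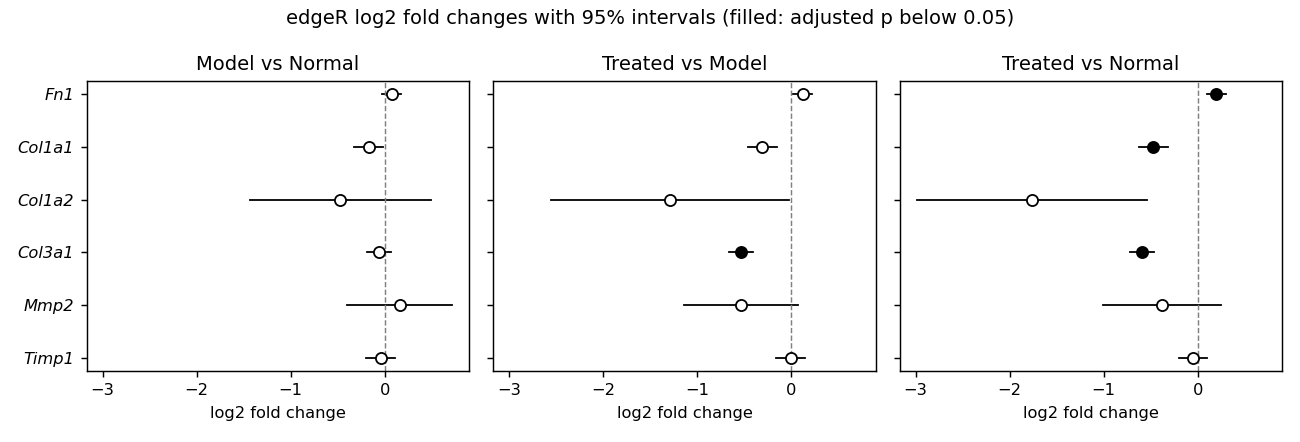
Log2 fold changes of the 6 genes in the 3 comparisons from edgeR, with 95% intervals as lines and filled points where the adjusted p was below 0.05. Filled points are Col3a1 in both comparisons with Treated and Fn1 and Col1a1 in Treated against Normal, and the intervals of Col1a2 and Mmp2 are the widest.

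Counted against all genes, no member was called between Model and Normal, where 0% of 12943 tested genes were called by edgeR, 0 by DESeq2 and 0 by limma, and 550 had an unadjusted edgeR p below 0.05. Only Fn1 had groups that did not overlap in that comparison, as did 9.12% of all tested genes. Between Treated and Model 1 of the 6 genes was called, Col3a1, against 0.919% of all genes (0.348% lower and 0.572% higher). In that comparison 4 of 6 did not overlap (Fn1 higher, the 3 collagen genes lower), against 18.8% of all genes. Between Treated and Normal 3 of 6 were called, 1 higher and 2 lower, against 2.67% of all genes (1.39% higher and 1.28% lower). There 5 of 6 did not overlap, with Timp1 the exception, against 24.4% of all genes. Col1a2, counted as not overlapping in both comparisons with Treated, and Mmp2, so counted against Normal, had at most 31 counts in a library. The median log2 fold change of the 6 genes was -0.05, -0.42 and -0.43 in the 3 comparisons, and that of all tested genes was 0.00 in each. The called genes had a median fold of 1.37 for Treated against Model and 1.34 for Treated against Normal. The members were chosen with earlier results of these data known, so their counts beside the shares of all genes are no test of the set. The counts of all genes called also depend on single libraries. A fit without Treated 2 called 8 genes for Treated against Model, where the fit of all libraries called 119, and 94 for Treated against Normal, where it called 346, with Col3a1 called in each.

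**Figure D4:**
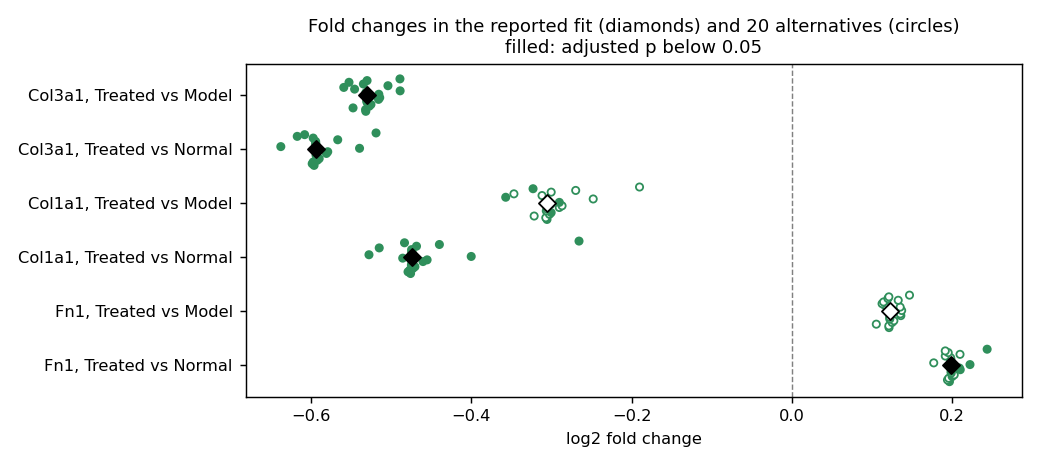
Log2 fold changes of Col3a1, Col1a1 and Fn1 for Treated against Model and against Normal, with the reported fit as a diamond and 20 alternative fits as circles, filled where the adjusted p was below 0.05. All 20 circles are filled for Col3a1 in both comparisons and for Col1a1 against Normal, 6 of 20 for Col1a1 against Model, 8 of 20 for Fn1 against Normal and none for Fn1 against Model.

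Ratios between genes of 1 library do not depend on how libraries are scaled. Of 6 ratios, the 3 of the initial plan (Mmp2 to Timp1, Col1a1 to Col1a2 and Col3a1 to Col1a1) overlapped between Treated and Normal, and the 3 chosen after seeing the data set the Treated libraries apart from all others. The Fn1 to Col3a1 ratio of FPKM was 0.439 ± 0.016 in Normal, 0.484 ± 0.016 in Model and 0.760 ± 0.032 in Treated (SD, n = 3). All 3 groups were apart, with Model at 0.466 to 0.497 and Treated at 0.740 to 0.797. The Fn1 to Col1a1 ratio was 1.83 ± 0.11 in Normal, 2.17 ± 0.14 in Model and 2.92 ± 0.15 in Treated (SD, n = 3), also without overlap. The Timp1 to Col3a1 ratio was 0.763 to 0.933 in Treated libraries and at most 0.611 elsewhere, with Normal and Model overlapping. The Col3a1 to Col1a1 ratio was 4.06 to 4.23 in Normal, 4.34 to 4.73 in Model and 3.49 to 4.16 in Treated libraries. For this ratio Treated lay below Model, Model lay above Normal, and Treated overlapped Normal. In the Treated libraries Fn1 lay above, and Col3a1 and Col1a1 below, every other library. The ratios with Fn1 therefore had to set Treated apart and restate the results of the single genes. All ratios are descriptions with no test.

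**Figure D5:**
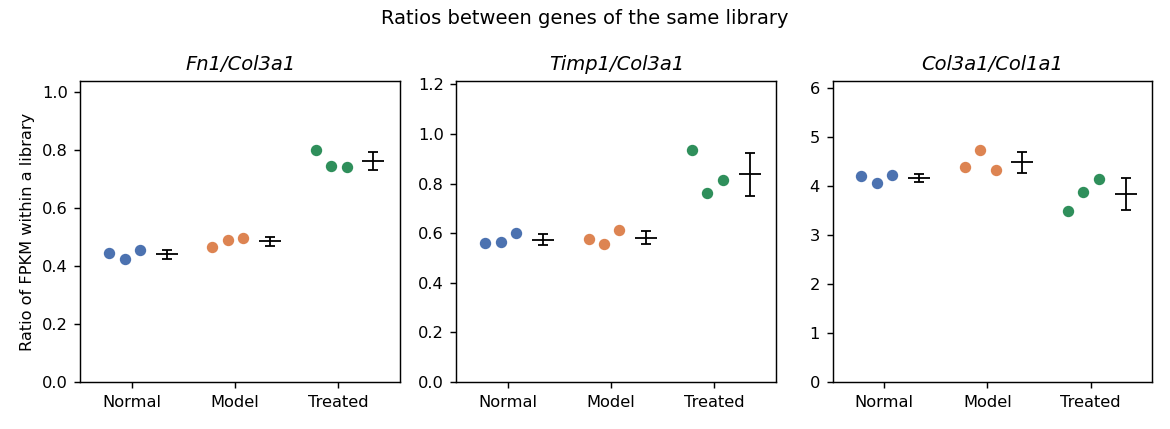
Ratios of FPKM within each library for Fn1 to Col3a1, Timp1 to Col3a1 and Col3a1 to Col1a1, with 1 point per library and the group mean with its SD in black. Treated libraries sit at 0.740 or above for Fn1 to Col3a1, where the other libraries reach 0.497 at most, and overlap Normal for Col3a1 to Col1a1.

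The spread between replicates was ordinary for the 4 abundant genes. The biological coefficient of variation (edgeR) was 7.22% for Fn1, 7.95% for Col1a1, 7.95% for Col3a1 and 7.10% for Timp1, against a median of 8.27% over tested genes. It was 12.4% for Mmp2 and 24.2% for Col1a2, and 98.0% of tested genes were at or below Col1a2. Counting error alone was at most 1.00% for Col3a1 and 0.822% for Fn1 in a library.

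Relations between members were tested over all 9 libraries, where 1 of 15 pairs passed. Col1a1 and Col3a1 had a Pearson r of 0.92 (exact permutation p = 0.000554, two-sided, adjusted p = 0.00831) and a Spearman rho of 0.90 (exact permutation p = 0.00203, adjusted p = 0.0304), and r was 0.91 without the 2 libraries farthest from the median of Col1a1. The Treated libraries lay apart from the others in both genes, so this relation holds the difference between groups. Libraries were permuted across groups, so these p-values cannot tell joint variation among replicates from that difference. Deviations from group means, which were not tested, had an r of 0.59 for Col1a1 and Col3a1. For Fn1 that r was 0.79 with Col1a1 and 0.80 with Col3a1, against -0.79 and -0.84 without removing group means. Over the 15 pairs it was -0.51 to 0.80. In the 6 Normal and Model libraries, examined after seeing the data, none of the 15 pairs passed after adjustment. There Col1a1 and Col3a1 had a Pearson r of 0.90 (exact permutation p = 0.0153, two-sided, adjusted p = 0.229) and a Spearman rho of 0.89 (exact permutation p = 0.0333, adjusted p = 0.500), and r was 0.91 without the 2 libraries farthest from the median of Col1a1. Col1a1 and Timp1 had an r of 0.87 (exact permutation p = 0.0389, adjusted p = 0.292) and a rho of 0.60 (exact permutation p = 0.242, adjusted p = 0.604). That relation rests on the 2 libraries farthest from the median, without which r was 0.15.

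Genes of most like pattern were taken by the highest Pearson r of log2 CPM over the 9 libraries, among 9384 other genes with a mean of at least 10 CPM. For Col3a1 this was ENSRNOG00000049560 (r = 0.99), at 339 ± 18.3 CPM in Normal, 326 ± 4.61 CPM in Model and 248 ± 7.13 CPM in Treated (SD, n = 3). For Timp1 it was ENSRNOG00000047035 (r = 0.95), at 35.5 ± 1.96, 33.9 ± 1.60 and 33.6 ± 3.34 CPM in the same order (SD, n = 3). Among all genes compared with Col3a1 in this way, members included, Col1a1 ranked 92 of 9387 (r = 0.92). These ranks describe likeness over libraries that share their groups and scaling, and are no test.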

How the data were processed

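The authors deposited whole-number read counts per Ensembl gene for 9 libraries, per the file headers. FPKM values stand beside them as computed by the authors, per the file headers. Count divided by FPKM gave 1 length for each of the 6 genes (740 bases for Timp1 to 9526 for Fn1). The submitters' processing notes name CASAVA 1.8 and mRatBN7.2, and libraries were strand-specific per the labels' protocols. Aligner, counter, strand setting and annotation: not given in the sources used here.

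Counts were tested with edgeR 4.0.16 (R 4.3.3), using TMM factors, filterByExpr at a minimum count of 10 and robust estimateDisp, glmQLFit and glmQLFTest, in 1 fit of all 9 libraries by group. This left 12943 genes with 99.9% of the counts. Genes with a Benjamini-Hochberg adjusted p below 0.05 were called, over all tested genes, with no minimum fold. The standard error is the log2 fold change divided by the square root of F, and intervals use the fit's degrees of freedom. Levels and ratios use the deposited FPKM, and relations were tested by exact permutation (Python 3.11.15, SciPy 1.17.1). Replicate libraries differed by more than counting noise (chi-square of 4.77 to 15.1 per degree of freedom), so none is a repeat deposit of another, which does not show that they are independent cultures.

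Other settings tried were upper-quartile factors, DESeq2 1.42.0, no filter, a minimum count of 50, 2 groups only, a replicate block, no robust settings, limma 3.58.1 on log2(FPKM + 0.1) or log2(FPKM + 1), and each library left out. Thinning to equal depth, a surrogate variable (sva 3.50.0), the relations in 6 libraries and the ratios with Fn1 or of Timp1 to Col3a1 were chosen after seeing the data. The members, lists and tests were chosen with earlier results of these data known. All 6 members were named, and for the 2 of highest FPKM, Col3a1 and Timp1, the gene of most like pattern. The reference gene table (GRCr8, 47357 genes) holds 0 Ensembl identifiers, so 12 lists of matrix genes and cell type markers (136 symbols) could not be scored. The lncRNA table was not used here.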

Additional observations from a re-analysis of the deposited data

How the results depend on the processing

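The falls of Col3a1 in both comparisons and of Col1a1 against Normal were called in all 20 alternative fits, but with a surrogate variable Col1a1 was at -0.27 against Normal and -0.19 against Model. The surrogate variable was -0.47 to -0.02 in Normal, -0.34 to 0.38 in Model and 0.095 to 0.45 in Treated libraries. It did not overlap between Normal and Treated, so fits with it may also remove part of the difference between groups. The log2 fold change of Fn1 against Normal was no longer called at 0.19 with upper-quartile factors, 0.20 with no filter, 0.20 in 2 groups only, 0.20 with the replicate block (edgeR adjusted p = 0.113) and 0.19 when thinned, and was 0.18 to 0.22 with a library left out. That of Col1a1 against Model was called at -0.31 in DESeq2, -0.30 in 2 groups only and -0.32 when thinned, and was -0.36 to -0.25 with a library left out. Uncalled values changed sign for Timp1 (0.020, 0.072 and 0.092 with a surrogate variable for Model against Normal, Treated against Model and Treated against Normal, 0.004 for Treated against Model with limma on log2(FPKM + 0.1), 0.0042 on log2(FPKM + 1)) and for Mmp2 in Treated against Normal (0.44 when thinned). With a library left out Timp1 spanned -0.078 to 0.00077, -0.064 to 0.051 and -0.11 to 0.0089 in these 3 comparisons. The cause was not tested.

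Counts of called genes moved more. Model against Normal gave 1 with the replicate block, 153 with a surrogate variable and 0 to 16 with a library left out, 16 without Model 1. Treated against Model gave 119 (74 higher, 45 lower), 223 in DESeq2 (112 higher, 111 lower), 47 with the replicate block, 57 and 58 with limma, 195 with a surrogate variable and 8 to 215 with a library left out. Treated against Normal gave 346, 551 in DESeq2, and 94 to 671 with a library left out. Deviations from group means correlated at -0.01 to 0.28 between same-numbered libraries and at -0.20 to 0.11 between differently numbered ones. With 3 libraries a group these values cannot decide whether replicate numbers pair the libraries. The replicate block ended no call among the 6 genes other than that of Fn1. Col1a2 and Mmp2 had at most 31 counts in a library, and neither passed the filter of 50 or, for Treated, had an adjusted p in DESeq2; Col1a2 also dropped out when thinned.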
